A study of Mus musculus with 12 samples.

Results

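Thrb, a thyroid hormone receptor gene used as a marker of the adrenal X-zone, was examined together with 8 other genes for nuclear hormone receptors, Thra, Esr1, Nr5a2, Ppara, Vdr, Rara, Rarb and Rarg, in whole mouse adrenals. The genes were taken by symbol, with every probeset that the platform annotation gave to that gene alone. Of the 9 genes, 7 were measured, each by 1 probeset, out of 6986 genes measured in all. Vdr and Rarg had no such probeset in the table and were not analysed here. Expression was measured on Affymetrix Mouse Gene 2.0 ST arrays and deposited on the log2 scale, where 1 unit is a doubling.

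The 4 groups were male and female mice of the KK/HIJ strain (KK-M and KK-F), an inbred strain prone to obesity and diabetes, and male and female mice of the C57Bl/6J strain (C57-M and C57-F), the common laboratory reference. The labels name no transgene or induced mutation. All 4 groups were given standard chow, went through fasting glucose and insulin tolerance testing and a set of behavioural tests, and were killed at 21 weeks by the labels, an age that differs slightly in the study's methods. The RNA of a group's mice was combined into 1 pool, and each pool was put on 3 arrays, so that 12 arrays were analysed. The p-values below therefore measure the spread between arrays of a pool and do not cover the spread between mice.

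Nuclear receptors are transcription factors that are switched by small lipophilic ligands such as thyroid hormone, oestrogen, retinoic acid and fatty acids. Many of them bind DNA as partners of a retinoid X receptor, at repeats of the short sequence AGGTCA. The X-zone is the innermost layer of the mouse adrenal cortex, next to the medulla. It is lost in males at puberty and in females during the first pregnancy, and thyroid hormone is known to act on it through the beta receptor that Thrb encodes.

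Of the measured genes, 4 lay in 2 places where nuclear receptor genes neighbour one another. On chromosome 14, Rarb and Thrb followed each other in the RefSeq gene order, with Nr1d2 on the far side of Thrb. On chromosome 11, Thra overlapped Nr1d1, and Rara lay nearby. Because Thrb and Rarb were neighbours and their levels differed as described below, their promoter windows are shown, as RefSeq gives them for GRCm38.p6, each from 250 bases before to 50 bases after a transcription start and read along the gene. Thrb had 2 annotated starts, at windows chr14:17660710-17661009 and chr14:17981394-17981693 on the plus strand, and Rarb 1, at chr14:16575427-16575726 on the minus strand. The window of Akr1c18, the other X-zone marker measured, was at chr13:4150597-4150896 on the minus strand. Capitals mark AGGTCA, or in Rarb the direct repeat of GTTCA spaced by any 6 bases, which is the classical retinoic acid response element of this gene.
Thrb start 1: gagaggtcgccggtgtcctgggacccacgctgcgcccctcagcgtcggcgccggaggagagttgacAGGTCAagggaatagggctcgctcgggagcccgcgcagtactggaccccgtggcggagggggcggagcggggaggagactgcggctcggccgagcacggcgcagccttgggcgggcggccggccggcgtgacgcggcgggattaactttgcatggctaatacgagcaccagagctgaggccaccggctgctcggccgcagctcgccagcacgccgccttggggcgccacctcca
Thrb start 2: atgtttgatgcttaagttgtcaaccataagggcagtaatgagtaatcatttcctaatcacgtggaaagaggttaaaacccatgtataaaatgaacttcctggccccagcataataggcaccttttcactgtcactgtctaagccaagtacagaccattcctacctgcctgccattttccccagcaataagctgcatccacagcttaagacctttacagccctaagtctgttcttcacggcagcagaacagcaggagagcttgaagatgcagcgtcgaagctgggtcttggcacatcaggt
Rarb: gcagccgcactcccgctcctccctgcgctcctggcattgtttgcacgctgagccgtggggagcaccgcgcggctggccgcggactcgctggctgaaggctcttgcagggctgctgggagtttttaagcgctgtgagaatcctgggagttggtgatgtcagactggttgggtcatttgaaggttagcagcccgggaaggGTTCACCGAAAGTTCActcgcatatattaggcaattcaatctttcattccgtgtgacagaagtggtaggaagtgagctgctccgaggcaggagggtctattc
Akr1c18: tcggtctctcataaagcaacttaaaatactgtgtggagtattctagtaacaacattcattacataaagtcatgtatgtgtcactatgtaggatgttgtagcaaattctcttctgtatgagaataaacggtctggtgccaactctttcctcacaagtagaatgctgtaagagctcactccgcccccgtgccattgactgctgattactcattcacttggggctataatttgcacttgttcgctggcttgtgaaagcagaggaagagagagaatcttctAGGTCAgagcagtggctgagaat
AGGTCA, searched on both strands, lay in the first Thrb window with its first base 184 bases before the start, and did not match in the second. It matched in 3 of the 12 windows found for 6 of the measured genes, in Nr5a2 and Rara beside Thrb, and in 16.3% of the 32817 windows of all genes. The Rarb repeat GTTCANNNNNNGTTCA began 52 bases before the start, and 25 of all windows (0.0762%) held it. The repeats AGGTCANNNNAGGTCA and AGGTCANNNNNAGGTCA, spaced as thyroid hormone and retinoic acid receptors prefer, and TCAAGGTCA, a form of the site bound by the receptor that Nr5a2 encodes, matched in none of the 12 windows. These matches are descriptions of letters and not binding sites. The place of the Thrb probeset (17297359) along the gene is not given in the sources used here, so transcripts from the 2 starts were not separated.

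Thrb was the receptor gene that differed most between the groups. Its log2 value was 6.47, 6.21 and 6.05 on the 3 KK-M arrays and 6.16, 6.08 and 6.26 on the C57-M arrays. In females it was 7.33, 7.20 and 7.44 on the C57-F arrays and 8.56, 8.52 and 8.55 on the KK-F arrays. Every female array was above every male array, and every KK-F array above every C57-F array, whereas the male strains overlapped. The group levels were 6.24 ± 0.21 (SD, n = 3 arrays, as in all group levels below) in KK-M, 8.54 ± 0.02 in KK-F, 6.17 ± 0.09 in C57-M and 7.32 ± 0.12 in C57-F.

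**Figure D1:**
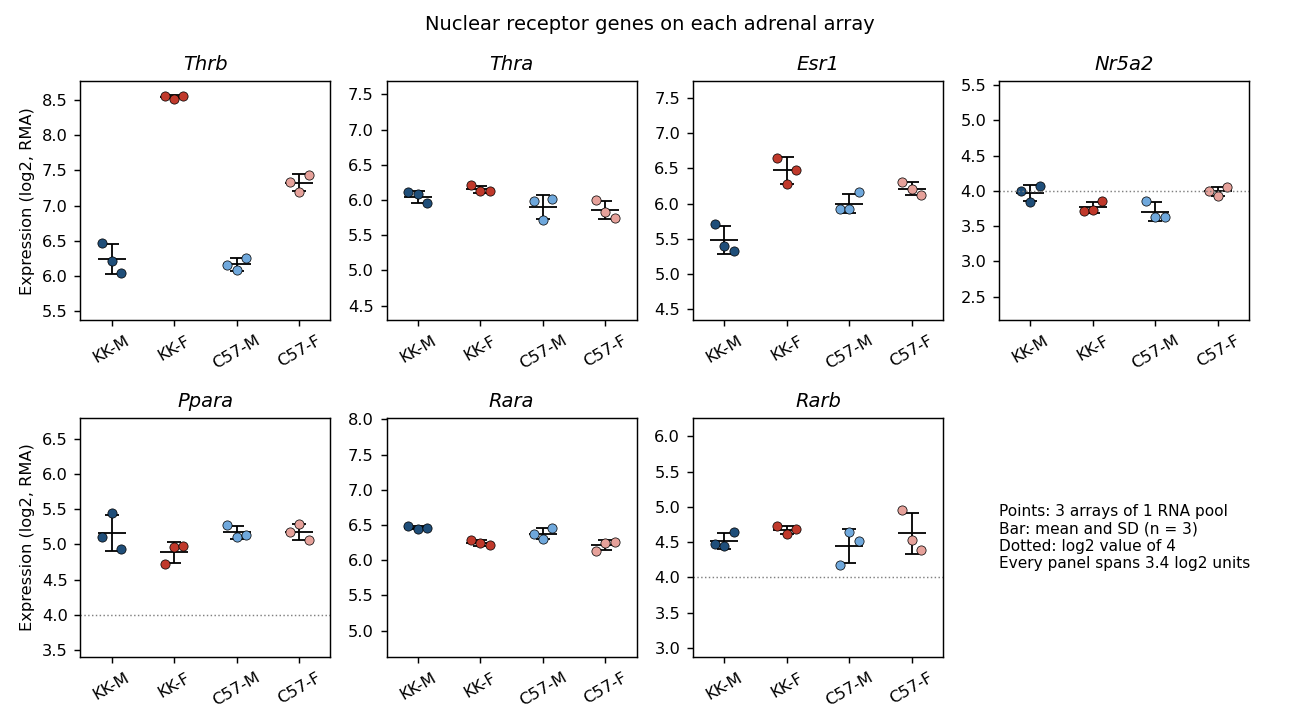
Log2 expression of the 7 measured receptor genes on each of the 12 arrays, by group, with the mean and SD of the 3 arrays of each pool. Thrb was highest in KK-F (8.54) and next in C57-F (7.32), with both male groups near 6.2, while Esr1 was lowest in KK-M (5.48). Between group means, the other 5 genes differed by at most 0.29.

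In the fit over 4414 genes, a gene counted as differentially expressed (DEG) when its fold change reached 1.4 and its adjusted p was under 0.05. Thrb was a DEG in 3 of the 4 pairwise comparisons. It was 4.93-fold lower in KK-M v KK-F (log2 difference -2.30 ± 0.11, SE; adjusted p = 1.4e-08) and 2.23-fold lower in C57-M v C57-F (-1.16 ± 0.11, adjusted p = 5.5e-06). Between females it was 2.33-fold higher in KK-F v C57-F (1.22 ± 0.11, adjusted p = 3.5e-06). Between males the difference was 0.08 ± 0.11 (adjusted p = 0.65), and its 95% interval of -0.16 to 0.31 lay inside the 1.4-fold threshold of 0.485. The sex difference was larger in KK than in C57, with a strain by sex interaction of -1.14 ± 0.15 (adjusted p = 0.00034). Since the adrenals were taken whole, fewer X-zone cells and less Thrb RNA per cell cannot be told apart.

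Over the tested receptor genes, the calls were set beside those over all genes. In KK-M v C57-M 1 of the 6 tested, Esr1, was called, when 20.4% of all genes were, and in KK-F v C57-F 1 of 6, Thrb, when 18.6% were. In KK-M v KK-F 2 of 6, Thrb and Esr1, were called against 18.8% of all genes, and in C57-M v C57-F 1 of 6 against 7.07%. For the mean strain difference 1 was called (0.65 ± 0.08 for Thrb, adjusted p = 1.7e-05; all genes 15.5%). For the mean sex difference 2 were called, Thrb at -1.73 ± 0.08 (adjusted p = 5.1e-09) and Esr1 at -0.60 ± 0.09 (adjusted p = 0.00018), when 8.61% of all genes were. With the 4 pool means as the data, these 3 calls were lost (adjusted p = 0.2 for Thrb by strain, 0.055 for Thrb by sex and 0.32 for Esr1 by sex). For the interaction both were called again, when 13.9% of all genes were. The groups did not overlap for 1, 3, 4 and 2 of the 6 genes in the pairwise comparisons in the order just given, and for 47.6%, 48.4%, 46% and 32.2% of all genes. The medians over the 6 genes were 0.08, 0.16, -0.13 and -0.10, against -0.07, 0.03, -0.06 and 0.02 over all genes. The 4 pairwise comparisons share groups and are not independent of one another.

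**Figure D2:**
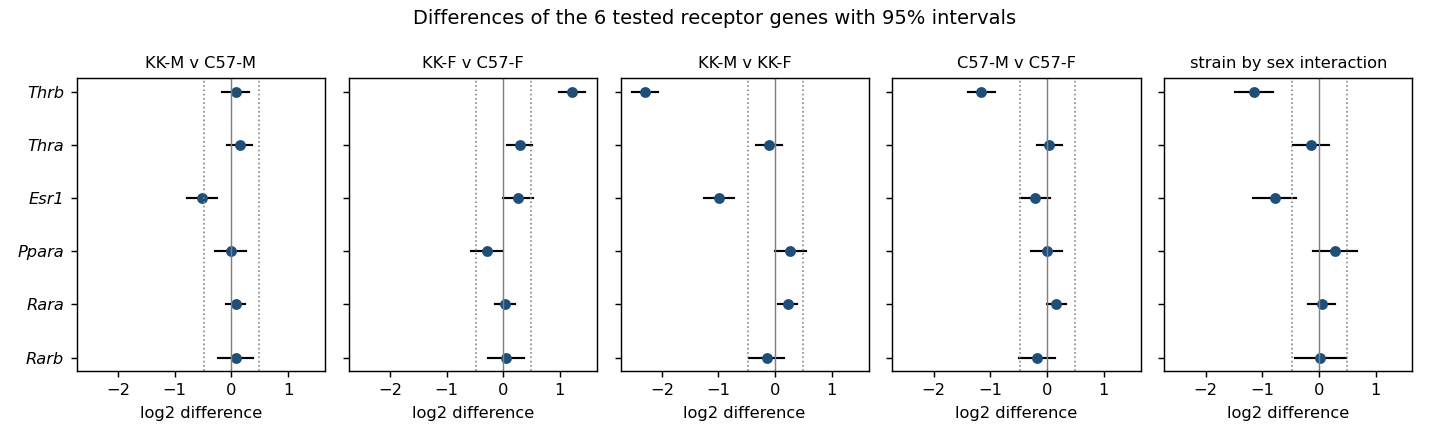
Log2 differences of the 6 tested receptor genes in the 4 pairwise comparisons (first group minus second) and in the strain by sex interaction, with 95% intervals and dotted lines at the 1.4-fold threshold (0.485). The intervals of Thrb lie beyond the threshold in KK-F v C57-F, in both sex comparisons and in the interaction, and those of Esr1 leave 0 out in KK-M v C57-M, in KK-M v KK-F and in the interaction.

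The 1 KK-M array with the highest Thrb value, array 1, also stood apart in other ways. On it the 9 measured hepatocyte markers averaged 5.05, against 4.06 and 4.09 on the other KK-M arrays, and Akr1c18 read 5.66 against 4.25 and 4.72. Without this array Thrb was -2.42 in KK-M v KK-F, -0.04 in KK-M v C57-M and -1.26 in the interaction, and Esr1 was -1.11, -0.64 and -0.90 in the same order, with the same calls for both.

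Akr1c18, which encodes the enzyme that inactivates progesterone, was far more abundant on the female arrays. Its log2 values were 5.66, 4.25 and 4.72 in KK-M, 12.31, 12.34 and 12.17 in KK-F, 2.95, 3.51 and 3.30 in C57-M and 8.24, 8.29 and 8.33 in C57-F. No groups overlapped, and both female groups were far above both male groups, as for Thrb. The C57-M values were under the minimum group mean of 4 that a gene had to reach in at least 1 group to be tested, and under the median of all probesets on each of those arrays, so no fold against C57-M is given. Across the 12 arrays, 3 to a pool, the Pearson correlation of Akr1c18 was 0.99 with Thrb and 0.73 with Esr1. Once each group's mean was taken off, the correlation of Thrb with Akr1c18 was 0.54. Of the remaining receptor genes, the correlation was 0.48 for Rarb, 0.42 for Thra, 0.01 for Nr5a2, -0.59 for Ppara and -0.68 for Rara.

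**Figure D3:**
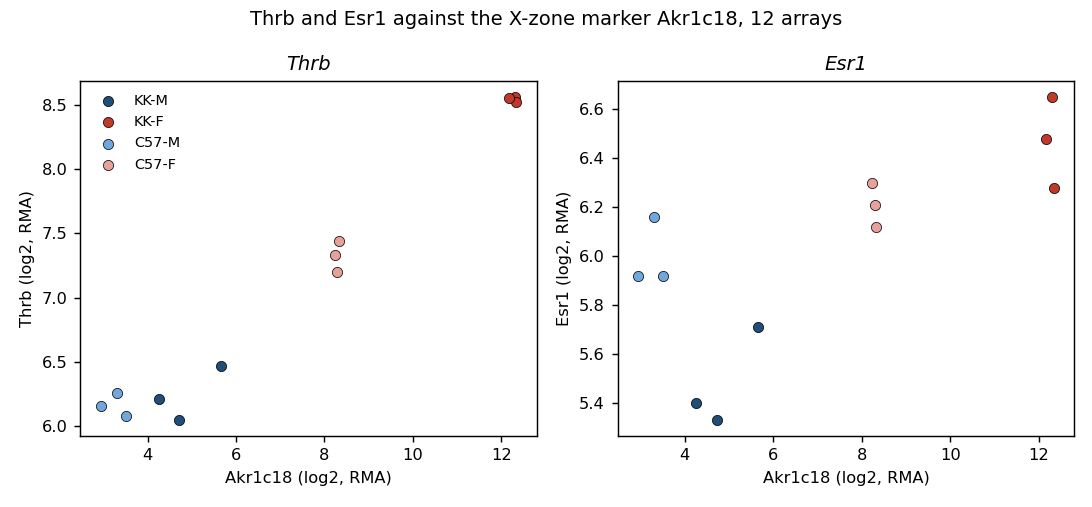
Thrb (left) and Esr1 (right) against Akr1c18, all in log2 units, with 1 point for each of the 12 arrays coloured by group. Thrb follows Akr1c18 across the 4 pools (r = 0.99 over 12 arrays), while Esr1 is lowest in KK-M (r = 0.73).

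By a fixed rule, the 8 genes most like Thrb over the 12 arrays among 4051 genes were Kif1c (r = 0.991), Akr1cl (0.988), Nrbp2 (0.988), Akr1c18 (0.985), Vnn3 (0.981), Plau (0.980), Aifm2 (0.980) and Lrrk2 (0.979). Kif1c, a kinesin motor gene, was the closest, with log2 differences of -1.22 in KK-M v KK-F, -0.64 in C57-M v C57-F and 0.67 in KK-F v C57-F. Plau, which encodes the urokinase plasminogen activator, differed by -1.93, -1.0 and 0.86 in the same comparisons, and the kinase gene Lrrk2 by -2.66, -0.80 and 1.52. Between males these 8 genes differed by -0.34 to 0.12, apart from Akr1c18. The genes that ran most against Thrb were Igfbp5 (r = -0.989), Lynx1 (-0.987), Timp2 (-0.974) and Dcn (-0.972). Once each group's mean was taken off, the correlation with Thrb was -0.04 for Igfbp5 and 0.80 for Kif1c. Igfbp5, an insulin-like growth factor binding protein gene, and Dcn, which encodes the matrix proteoglycan decorin, were also on the list of capsule and stroma markers. Of the 8 genes of that list tested, 4 rose and 1 fell in KK-M v KK-F and 4 fell in KK-F v C57-F. In KK-M v C57-M 1 rose and 1 fell, and in C57-M v C57-F 2 rose. The share of all genes called was 18.8% in KK-M v KK-F, 18.6% in KK-F v C57-F, 20.4% in KK-M v C57-M and 7.07% in C57-M v C57-F. The 1 that fell by sex, Sparc, a matrix protein gene, was highest in KK-F like Thrb (10.91, against 10.15 to 10.43 in the other groups). The list averaged 6.27 to 6.35 on the KK-F arrays and 6.70 to 6.99 on the arrays of the other groups, and its part in the Thrb difference was not tested. The mean of the 4 zona glomerulosa markers measured, of the outermost cortex, ran against Thrb. It was 8.66 to 8.83 on the KK-F arrays, 9.34 to 9.39 in C57-F, 9.81 to 9.88 in KK-M and 10.06 to 10.10 in C57-M. Of the 4 markers, 3 were higher in males of each strain, and Vsnl1, a neuronal calcium sensor gene, was 2.05 ± 0.12 lower in KK-F v C57-F. Dab2, the remaining marker, was at 10.32 in KK-M, 10.18 in KK-F, 10.65 in C57-M and 10.71 in C57-F. It was not called by sex and was 0.53 ± 0.07 lower in KK-F v C57-F. The part of these markers in the Thrb difference was not tested either.

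The neighbours of Thrb on chromosome 14 differed otherwise. Rarb, next to it, was a DEG in none of the 4 comparisons. Nr1d2, a Rev-erb repressor gene of the circadian clock, was 0.54 ± 0.09 lower in KK-F v C57-F (adjusted p = 0.00057), opposite to Thrb. Top2b, on the far side of Rarb, differed by 0.06 ± 0.11 between the females and by -0.28 ± 0.11 in KK-M v KK-F (adjusted p = 0.72 and 0.069).

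Thra encodes the other thyroid hormone receptor, and it differed little. Its log2 values were 6.11, 6.08 and 5.95 in KK-M, 6.21, 6.12 and 6.12 in KK-F, 5.98, 5.71 and 6.01 in C57-M, and 6.00, 5.83 and 5.74 in C57-F. The KK-F arrays were all above the C57-F arrays, the KK-F arrays were just above the KK-M arrays, and the other comparisons overlapped. The difference was 0.29 ± 0.10 in KK-F v C57-F (adjusted p = 0.046), which was 1.22-fold and under the fold threshold, and the mean strain difference was 0.22 ± 0.07 (adjusted p = 0.024). By sex it differed by -0.10 ± 0.10 in KK, a sign that turned under a renewed quantile normalization (0.04), and by 0.04 ± 0.10 in C57. Both 95% intervals lay inside the fold threshold. The 3′ end of one Thra transcript overlaps Nr1d1, a Rev-erb gene on the opposite strand. Nr1d1 was 0.71 ± 0.11 lower in KK-M v C57-M (adjusted p = 0.00029) and 0.52 ± 0.11 lower than in KK-F (adjusted p = 0.0029).

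Of 24 genes listed for thyroid hormone transport, activation and response, 7 were tested. In KK-M v C57-M, 1 rose and 4 fell, with a list median of -0.59 against -0.07 over all genes. In KK-F v C57-F, 1 rose and 4 fell as well, with a median of -0.76 against 0.03. Of all genes, 20.4% and 18.6% were called in these comparisons. The 4 that fell in females include Dio2, the enzyme that activates thyroxine, at 3.71 in KK-F and 4.48 in C57-F. Dio2 passed the minimum of 4 only through C57-F, and its difference set the list median. Slc7a8, an amino acid carrier that also moves thyroid hormone, was the member that rose, by 1.27 ± 0.10 in males and 0.94 ± 0.10 in females. Fasn and Acaca, the lipogenic enzymes fatty acid synthase and acetyl-CoA carboxylase, fell in both, with -1.34 ± 0.10 and -1.32 ± 0.10 for Fasn and -1.43 ± 0.12 and -0.91 ± 0.12 for Acaca. Slc16a10, a transporter gene, was 0.63 ± 0.14 lower in KK-M v C57-M. Tshr, the thyrotropin receptor, was called lower in KK in both sexes, at 4.36 in KK-M against 4.94 in C57-M. In KK-F v C57-F (4.94) its KK-F level was just under the minimum of 4. By sex, 2 of the 7 fell in KK-M v KK-F, Acaca (-1.01 ± 0.12) and Slc16a10 (-0.69 ± 0.14), when 18.8% of all genes were called. In C57-M v C57-F, when 7.07% were, 1 was called lower, Dio2 again. It was at 4.48 in C57-F and at 3.68 to 3.86 in the other groups, all under that minimum, so it entered the test only through C57-F and no fold is given. Fasn, Acaca and Tshr are also expressed in fat and Fasn and Acaca in liver. The 4 white adipocyte markers measured averaged 6.85 to 6.86 in KK-M, 5.80 to 5.94 in KK-F and 6.90 to 7.16 in the C57 groups, and the 9 hepatocyte markers 4.06 to 5.05 in the KK groups and 6.58 to 7.36 in the C57 groups. Their part in these differences was not tested.

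Esr1, which encodes oestrogen receptor alpha, was the other tested receptor gene to be called. Its log2 values (probeset 17231461) were 5.71, 5.40 and 5.33 in KK-M and 5.92, 5.92 and 6.16 in C57-M. They were 6.65, 6.28 and 6.48 in KK-F and 6.30, 6.21 and 6.12 in C57-F. The KK-M arrays were below all others, and each of the other groups overlapped its neighbour in the order KK-F (6.47 ± 0.19), C57-F (6.21 ± 0.09), C57-M (6.00 ± 0.14) and KK-M (5.48 ± 0.20). Esr1 was 1.99-fold lower in KK-M v KK-F (-0.99 ± 0.12, adjusted p = 6.4e-05) and 1.44-fold lower in KK-M v C57-M (-0.52 ± 0.12, adjusted p = 0.0063). This call against C57-M lay close to the fold threshold and was lost under 5 of 25 alternatives. These were a 2-fold threshold, a renewed quantile normalization (-0.46) and leaving out C57-M array 3 (-0.44), KK-M array 2 (-0.48) or KK-M array 3 (-0.45). It did not pass in KK-F v C57-F (0.26 ± 0.12, 95% interval -0.01 to 0.53) or in C57-M v C57-F (-0.21 ± 0.12, -0.48 to 0.06). The sex difference was larger in KK than in C57, with an interaction of -0.78 ± 0.18 (adjusted p = 0.0092). KK-M was also the group in which all 10 tested skeletal muscle markers rose, both against C57-M and against KK-F, with array averages of 6.19 to 6.40 against 3.60 to 3.87 in the other groups. The share of all genes called was 20.4% in KK-M v C57-M and 18.8% in KK-M v KK-F. Of the 10 muscle markers, 6 were under the minimum of 4 in every other group and so entered the test only through KK-M. Their part in the Esr1 difference was not tested.

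The genes most like Esr1 over the 12 arrays were Xpo4 (r = 0.977), a nuclear export receptor gene, Hsd17b7 (0.963), whose enzyme reduces oestrone and a cholesterol precursor, and Scarf1 (0.962), a scavenger receptor gene. Of 22 genes listed for oestrogen synthesis and response, 6 were tested. Of these 2 fell in KK-M v C57-M, 1 fell in KK-F v C57-F, 1 rose and 1 fell in KK-M v KK-F, and 1 rose in C57-M v C57-F. Hsd17b7 was 1.71 ± 0.18 lower in KK-M v KK-F and 1.19 ± 0.18 lower in KK-M v C57-M. Greb1, an oestrogen-responsive gene of breast cells, was higher in males, by 0.99 ± 0.10 in KK and 1.38 ± 0.10 in C57, the reverse of the direction of Esr1 in KK, and 0.50 ± 0.10 lower in KK-M v C57-M, where Esr1 was lower too. Xbp1, which encodes a secretory stress factor, was 0.82 ± 0.08 lower in KK-F v C57-F. The list medians were -0.40, -0.18, 0.11 and -0.14 in the order of the comparisons just given, against -0.07, 0.03, -0.06 and 0.02 over all genes. Of all genes, 20.4%, 18.6%, 18.8% and 7.07% were called in that order.

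Rara and Rarb encode retinoic acid receptors. Rara read 6.48, 6.44 and 6.46 in KK-M, 6.29, 6.24 and 6.21 in KK-F, 6.37, 6.30 and 6.46 in C57-M, and 6.13, 6.25 and 6.26 in C57-F. The male arrays were above the female arrays in both strains, and the strains overlapped within each sex. The difference was small, at 0.22 ± 0.08 in KK (adjusted p = 0.054), 0.16 ± 0.08 in C57 (adjusted p = 0.13) and 0.19 ± 0.06 for the mean over strains (adjusted p = 0.018, 1.14-fold), and the 95% intervals of all 3 lay inside the fold threshold. Rarb read 4.17 to 4.95 over the 12 arrays, with overlapping groups in every comparison, and its differences of -0.18 to 0.08 came with SEs of 0.15. Its 95% intervals lay inside the fold threshold except in C57-M v C57-F, where the interval reached -0.50.

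Of 35 retinoid handling genes, 9 were tested. In KK-M v C57-M 1 rose and 2 fell, in KK-F v C57-F 2 fell, in KK-M v KK-F 1 fell and in C57-M v C57-F 2 fell. Of all genes, 20.4%, 18.6%, 18.8% and 7.07% were called in these comparisons. The list medians were -0.05, -0.18, 0.02 and -0.18, against -0.07, 0.03, -0.06 and 0.02 over all genes. The retinol dehydrogenase gene Rdh10, which makes retinal, was 0.54 ± 0.12 lower in KK-M v C57-M. Its relative Rdh11 was 0.68 ± 0.09 lower in KK-M v KK-F. Rdh9 was 0.62 ± 0.18 higher in KK-M v C57-M and 0.72 ± 0.18 lower in C57-M v C57-F. Rdh7 was called lower in KK in both sexes, but it passed the minimum of 4 only through C57-F (4.14) and was under 4 in C57-M, at 3.31 in KK-M and 3.26 in KK-F, so no fold is given. Dgat1, which stores triglyceride and retinyl esters, was 0.71 ± 0.07 lower in KK-F v C57-F. The only retinoid X receptor gene tested, Rxrg, was called in none of the 4 comparisons, with differences of -0.40 to 0.39.

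Ppara encodes the fatty acid sensor that drives fatty acid oxidation in liver and other tissues. It read 5.10, 5.44 and 4.94 in KK-M, 4.72, 4.96 and 4.98 in KK-F, 5.28, 5.10 and 5.13 in C57-M, and 5.18, 5.29 and 5.07 in C57-F. The KK-F arrays were below the C57-F arrays, and all other comparisons overlapped. No difference passed, the largest being -0.29 ± 0.13 in KK-F v C57-F (adjusted p = 0.099) with a 95% interval of -0.57 to -0.02. Among 32 genes of fatty acid oxidation that this receptor controls in liver, 5 were tested. In KK-M v C57-M 1 rose and 2 fell, in KK-F v C57-F 1 rose and 1 fell, in KK-M v KK-F 1 rose and 2 fell, and in C57-M v C57-F 1 fell. Of all genes, 20.4%, 18.6%, 18.8% and 7.07% were called in these comparisons. The list medians were -0.15, 0.09, -0.05 and -0.10, against -0.07, 0.03, -0.06 and 0.02 over all genes. Vnn1, a pantetheinase gene, had group levels of 8.66 in KK-F, 6.88 in KK-M, 6.38 in C57-F and 5.82 in C57-M, and was 2.28 ± 0.11 higher in KK-F v C57-F. Acot2, a mitochondrial thioesterase gene, was lower in KK, by 0.54 ± 0.13 in males and 0.99 ± 0.13 in females, and 0.84 ± 0.13 higher in KK-M v KK-F. It was also 1 of the 2 brown adipocyte markers measured. The other, Letmd1, was lower in KK too, by 0.66 ± 0.10 in males and 0.79 ± 0.10 in females. The part of brown fat in the Acot2 difference was not tested. Acadl, the long-chain acyl-CoA dehydrogenase gene, was 0.56 ± 0.09 lower in KK-M v C57-M and 0.80 ± 0.09 lower in KK-M v KK-F.

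Nr5a2 encodes LRH-1, a relative of the steroidogenic factor SF-1. It lay near the filter on low values, with group levels of 3.97 in KK-M, 3.77 in KK-F, 3.70 in C57-M and just under 4 in C57-F, and was the 1 measured receptor gene not tested. Its values were 4.0, 3.84 and 4.07 in KK-M, 3.71, 3.73 and 3.86 in KK-F, 3.86, 3.63 and 3.63 in C57-M, and 4.0, 3.93 and 4.06 in C57-F. The C57-F arrays were above the C57-M and the KK-F arrays. With no filter on low values, its interaction was 0.50 ± 0.14 (adjusted p = 0.045), and its pairwise differences of -0.29 to 0.27 had adjusted p-values of 0.06 to 0.19. Of 22 genes listed for SF-1 and LRH-1, 3 were tested, and Inha and Cyp11b2 of these rose in males of both strains. In KK-M v C57-M and KK-F v C57-F 0 of the 3 were called. The share of all genes called was 18.8% in KK-M v KK-F, 7.07% in C57-M v C57-F, 20.4% in KK-M v C57-M and 18.6% in KK-F v C57-F. Cyp11b2, the aldosterone synthase gene, was 1.0 ± 0.09 higher in KK-M v KK-F and 0.85 ± 0.09 higher in C57-M v C57-F. Inha, which encodes inhibin alpha, was 1.04 ± 0.08 and 0.71 ± 0.08 higher. The third, Cyp11b1, the 11-beta-hydroxylase gene of the cortex, was at 12.46 to 12.83 in every group and was not called. Of the 13 vitamin D genes listed, 1 was tested, Cyp27a1, a mitochondrial sterol hydroxylase gene, which was 0.82 ± 0.12 lower in KK-F v C57-F and 0.90 ± 0.12 higher in KK-M v KK-F.

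Among 40 other nuclear receptor genes listed, 12 were measured and 10 tested. Of these 2 fell in KK-M v C57-M, 1 rose and 2 fell in KK-F v C57-F, and 2 fell in KK-M v KK-F. In C57-M v C57-F limma called 0, with 0 at an unadjusted p under 0.05 and 0 by the fit without moderated variance. Of all genes, 20.4%, 18.6%, 18.8% and 7.07% were called in the same order of comparisons. Nr1h4, the bile acid receptor gene FXR, differed most, with group levels of 4.77 in KK-M, 6.28 in KK-F, 5.82 in C57-M and 5.77 in C57-F. It was 1.51 ± 0.11 lower in KK-M v KK-F (adjusted p = 8.2e-07) and 1.05 ± 0.11 lower in KK-M v C57-M (adjusted p = 1.9e-05), and 0.52 ± 0.11 higher in KK-F v C57-F (adjusted p = 0.0039). Like Esr1, it was lowest in KK-M and highest in KK-F. Nr4a1, an immediate early orphan receptor gene induced by corticotropin, was at 11.43 in KK-F and 11.92 in C57-F, a difference of -0.49 ± 0.07 (adjusted p = 0.00025). Esr2, which encodes oestrogen receptor beta, had group levels of 4.22 to 4.50 and was not called.

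**Figure D4:**
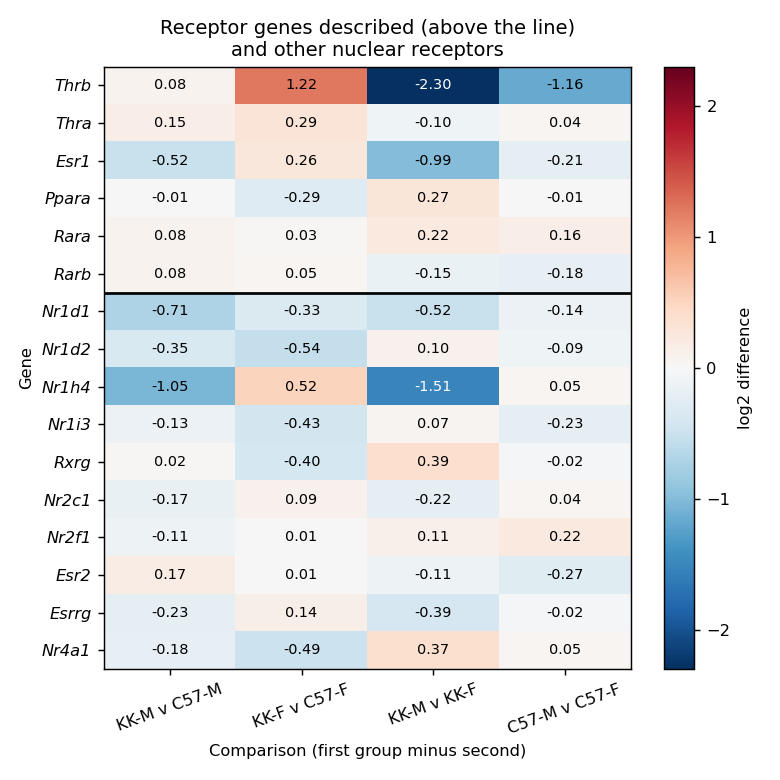
Log2 differences in the 4 pairwise comparisons (columns, first group minus second) for the 6 tested receptor genes, above the line, and the 10 other nuclear receptor genes tested, with red for higher and blue for lower in the first group. Thrb in KK-M v KK-F (-2.30) and Nr1h4 in the same comparison (-1.51) are the largest values shown.

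The coregulators that nuclear receptors recruit were tested for 11 of 29 genes listed. In KK-M v C57-M 1 rose and 1 fell, in KK-F v C57-F 1 rose, in KK-M v KK-F 3 fell and in C57-M v C57-F 1 fell. Of all genes, 20.4%, 18.6%, 18.8% and 7.07% were called in the same order. Ncoa7, an oestrogen receptor coactivator gene, was higher in KK in both sexes, by 0.63 ± 0.11 in males and 0.76 ± 0.11 in females. Med1, the Mediator subunit that contacts thyroid hormone and other receptors, was 0.68 ± 0.09 lower in KK-M v KK-F. Ncoa4 was lower in KK-M v C57-M (-0.60 ± 0.10) and than in KK-F (-0.59 ± 0.10). Tob1, an antiproliferative gene, was lower in males than in females of both strains (-0.81 ± 0.11 in KK and -0.55 ± 0.11 in C57). The list medians were -0.15, 0.15, -0.19 and 0.02 in the same order of comparisons, against -0.07, 0.03, -0.06 and 0.02 over all genes.

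Markers of the cortex and the medulla were found in every group. Cyp11b1 and Cyp11b2 of the cortex stood at 9.10 to 12.83 in every group, and the 6 chromaffin markers of the medulla averaged 6.91 to 8.21. Chromaffin markers were higher in KK for 4 of 6 genes in each sex. Among those called, Nefl was under the minimum of 4 in C57-M (3.62) and C57-F (3.31), and entered the test only through KK. Hepatocyte markers were lower in KK for 7 of 9 genes in each sex, and 1 rose in KK-M v C57-M. The gene that rose, Hal, stood at 4.70 in KK-M and 3.78 in C57-M. By sex, 2 of the 9 rose in KK-M v KK-F and 5 fell in C57-M v C57-F. Apob, Serpina1d and Fbp1 were under the minimum of 4 in both KK groups (2.67 to 3.93), and entered the test only through C57. Muscle markers were higher in KK-M for 10 of 10, as given above. Of the 4 macrophage markers, 4 were higher in C57-M v C57-F, with array averages of 8.26 to 8.33 and 7.16 to 7.33, 3 rose and 1 fell in KK-F v C57-F, and 2 fell in KK-M v C57-M. In KK-M v KK-F 1 rose and 1 fell. The share of all genes called was 20.4% in KK-M v C57-M, 18.6% in KK-F v C57-F, 18.8% in KK-M v KK-F and 7.07% in C57-M v C57-F. The part of these lists in the receptor differences was not tested.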

How the data were processed

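Values per probeset were deposited by the authors on the log2 scale. Per the labels they came from robust multi-array averaging (RMA) in Partek, a method that subtracts background, gives all arrays like distributions and summarizes the probes of a set, so each value is relative to the rest of its array. They were used without further scaling. Arrays give no counts, and precision rests on how many there are.

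The table held 16378 probesets, of which GEO's platform annotation gave 7358 a single gene. Of these, 7310 matched RefSeq (GRCm38.p6) by gene ID, 7277 of them on chromosomes 1 and 10 to 15, so genes elsewhere were mostly not analysed here. The brightest probeset was kept for 284 genes with several. Genes with a group mean of at least 4 in at least 1 group were tested (4414 of 6986), among them 6 of the 7 measured receptor genes.

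The fit took 1 mean per group over all 12 arrays and used limma (version 3.58.1; lmFit, contrasts.fit and eBayes; R version 4.3.3), with two-sided tests. The p-values were adjusted after Benjamini and Hochberg over all genes, jointly over the 4 pairwise comparisons, and on their own for the interaction and for the mean differences by strain and by sex. Intervals used 8 residual and 4.84 prior degrees of freedom. The fit was tested on simulated data. Replicate numbers were not used as a block, since same-numbered arrays of different pools did not deviate together. The alternatives were other normalizations, filters, thresholds, variance models, probeset rules, a replicate block, and each array left out in turn.

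Genes named were all receptor genes, up to 4 DEGs per list and comparison with the largest change, and the genes most like Thrb (8 high, 4 low) or Esr1 (3), clone names left out. Neighbours in the gene order, and the members Rxrg, Esr2 and Cyp11b1 of the lists, were added after their values were seen. The receptor genes, the lists and the tests were chosen with earlier results of these data known.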

Additional observations from a re-analysis of the deposited data

Results flagged for a closer look

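The sex difference of 2 receptor genes differed between the strains by the test of the interaction (limma, adjusted over all 4414 genes). For Thrb the interaction was -1.14 ± 0.15 (SE) on the log2 scale, adjusted p = 0.00034. All 3 male arrays were below all 3 female arrays in each strain, and the gap between group means was -2.30 in KK and -1.16 in C57. For Esr1 the interaction was -0.78 ± 0.18, adjusted p = 0.0092, with a gap of -0.99 in KK, where no arrays overlapped, and of -0.21 in C57, where they did. Groups of 3 arrays were too small to examine for outlying arrays by the gap test used for larger groups.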

How the results depend on the processing

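The spread between mice was not measured, and an adjusted p could come only from arrays of 1 pool per group. Across 10 called receptor differences, 248 values under the alternatives kept their sign, and 236 kept the call. With the 4 pool means as the data and additive strain and sex terms, the calls were lost. Receptor genes called went to 0 for strain (Thrb 0.65 ± 0.26, adjusted p = 0.2) and to 0 for sex (Thrb -1.73 ± 0.26, adjusted p = 0.055), and all genes called went from 683 to 289 for strain and from 380 to 10 for sex. At a 2-fold threshold, receptor genes called were 0 in KK-M v C57-M, 1 in KK-M v KK-F, 0 for strain, 1 for sex and 1 for the interaction, and all genes called were 170, 184, 155 and 34 in the pairwise comparisons, 133 for strain, 58 for sex and 131 for the interaction. At a 1.2-fold threshold 2 were called in KK-F v C57-F, with Thra, and all genes called were 1555, 1422, 1486 and 695, then 1585 for strain and 1113 for sex. Receptor genes called in KK-M v C57-M were 0 with a renewed quantile normalization and 0 to 1 with an array left out (0 without C57-M array 3, KK-M array 2 or KK-M array 3). That normalization shifted the all-gene median by 0.12 in KK-M v KK-F and 0.13 in the interaction, and moved the share of calls that were higher from 38.6% to 61.4%, from 27.5% to 53.2%, and from 34.5% to 49.5% in KK-M v C57-M. Uncalled values near 0 changed sign. With the renewed normalization Ppara was 0.04 in KK-M v C57-M, Rara -0.03 and Rarb -0.01 in KK-F v C57-F, and Thra 0.04 in KK-M v KK-F, 0.04 for sex and 0.0020 in the interaction. With median centring Rara was -0.01 in KK-F v C57-F, Ppara 0.03 in C57-M v C57-F and Thra 0.03 for sex. With 1 array left out, Thrb ranged from -0.04 to 0.17 in KK-M v C57-M. Ppara ranged from -0.15 to 0.10 in KK-M v C57-M and -0.07 to 0.04 in C57-M v C57-F. Rarb ranged from -0.06 to 0.17 in KK-M v C57-M, -0.07 to 0.22 in KK-F v C57-F, -0.0045 to 0.15 for strain and -0.14 to 0.14 for the interaction. Rara ranged from -0.01 to 0.06 in KK-F v C57-F. Thra ranged from -0.02 to 0.14 in C57-M v C57-F and -0.06 to 0.02 for sex. The causes were not tested. A replicate block changed no receptor call (Thrb 1.22 in KK-F v C57-F), and 5 of 12 arrays correlated best with their own number. Nr5a2 entered the test under 5 settings, with an interaction of 0.50 to 0.56.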
